A study of Rattus norvegicus with 12 samples.

Results

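Contraction, calcium reuptake and electrical coupling of heart muscle cells rest on a small set of abundant proteins, and 5 of their genes were followed here across 12 RNA-seq libraries. The genes were Tnnt2 (ENSRNOG00000033734), Actc1 (ENSRNOG00000008536), Acta1 (ENSRNOG00000017786), Atp2a2 (ENSRNOG00000001285) and Gja1 (ENSRNOG00000000805). They were picked by name, with earlier results of these data known, and make up 5 of the 19775 genes in the count table. Levels are given in counts-per-million (CPM), the estimated count of a gene scaled by the total count of its library.

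The libraries came from iAMs, a line of neonatal rat atrial myocytes with wild-type genotype that were immortalized with lentiviral, doxycycline-controlled SV40 large T antigen and kept as puromycin-selected stable lines. After 9 days of differentiation without doxycycline, cells were exposed for 16 h to PBS vehicle, to 0.1 µM NRG1 (neuregulin-1, the natural ligand that activates ERBB4 receptors) or to 32 µM EF-1, a small molecule from a screen for ERBB4 agonists, with DMSO present in every culture. Each group had 4 libraries, numbered 1 to 4 for vehicle, 5 to 8 for NRG1 and 9 to 12 for EF-1. An immortalized line of atrial origin in monoculture is a limited model of working myocardium, and 1 time and 1 dose per agent were sampled. The doses of the agents differ, so the values of NRG1 and EF-1 stand side by side and are not a comparison of potency.

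In a sarcomere, actin filaments slide along myosin when calcium binds the troponin complex, which troponin T anchors to the thin filament. Relaxation follows as the SERCA2 pump, encoded by Atp2a2, returns calcium to the sarcoplasmic reticulum. Gap junctions of connexin 43, encoded by Gja1, carry the electrical impulse from cell to cell. Among the actins, Actc1 encodes the cardiac form and Acta1 the skeletal form, which is prominent in fetal heart muscle and returns in hypertrophy.

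The totals were 18121643, 27220266, 12216228 and 19280141 counts in vehicle libraries 1 to 4, 24397526, 27467198, 27099847 and 21384901 in NRG1 libraries 5 to 8, and 14442672, 13763279, 17149059 and 16314633 in EF-1 libraries 9 to 12. All EF-1 libraries were shallower than all NRG1 libraries, with a difference of means of -9669957 counts (exact permutation p = 0.0286, the smallest that 4 against 4 libraries allow, adjusted p = 0.257 over the 9 comparisons of library measures, 3 measures in 3 pairs of groups). Without EF-1 library 12 this difference was -9969031 counts (exact permutation p = 0.0286, adjusted p = 0.0857). The part of depth in the results was not tested. The lowest count of any of the 5 genes was 8998, for Acta1 in NRG1 library 8, and the counting error of a member in a library was at most 1.05%. The spread between libraries of 1 group was larger, with a coefficient of variation of 8.09% to 34.1%.

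The libraries also differed in the balance of reads between short and long transcripts, given here because Atp2a2 has the longest transcripts of the 5 genes. The slope of log2 reads per doubling of transcript length, relative to the mean of all libraries, was taken over the 12239 transcripts that were 500 bases or longer and averaged 50 reads or more. It was -0.0939, 0.191, -0.0166 and 0.135 in vehicle libraries 1 to 4, and -0.0415, 0.168, 0.0705 and 0.144 in NRG1 libraries 5 to 8. In EF-1 libraries 9 to 11 it was -0.118, -0.326 and -0.234, whereas EF-1 library 12 had a slope of 0.122. EF-1 library 12 lay within the vehicle and NRG1 ranges, and EF-1 libraries 9 to 11 lay below every vehicle and NRG1 library. Since library 12 differed from the rest of its group, several EF-1 results are also given without it, a choice made after these values were seen. Leaving it out widens the difference in slope between EF-1 and the other groups, as given below, and is no removal of a faulty library. The difference in mean slope was -0.193 for EF-1 against vehicle (exact permutation p = 0.114, adjusted p = 0.321) and -0.224 for EF-1 against NRG1 (exact permutation p = 0.0857, adjusted p = 0.321). With so few libraries, an adjusted value under 0.05 would need at least 6 of the 9 comparisons at the smallest possible p, so these tests do not show that the groups were alike. Without EF-1 library 12 these slope differences were -0.280 (exact permutation p = 0.0571, adjusted p = 0.103) and -0.312 (exact permutation p = 0.0286, adjusted p = 0.0857). The ratio of effective to annotated length was the last of the 3 measures (adjusted p from 0.360 to 0.579, exact permutation tests). Its EF-1 differences in log2 were -0.0475 against vehicle and -0.0230 against NRG1, and without EF-1 library 12 they were -0.0750 and -0.0505 (exact permutation tests, adjusted p = 0.103 and 0.0857).

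Tnnt2, Actc1, Acta1 and Atp2a2 were all lower after NRG1, each at 44.1% to 48.3% of the vehicle level in the fit, while Gja1 was higher in every NRG1 library than in any vehicle library without passing the test across all genes. After EF-1, none of the 5 genes differed from vehicle past the test, and the 4 contractile and pump genes were higher than after NRG1. Together the 5 genes held 2.95% to 3.44% of all counts in vehicle libraries, 1.42% to 1.81% in NRG1 libraries and 2.25% to 3.42% in EF-1 libraries. In bulk RNA, fewer myocytes in the culture and less RNA of these genes per myocyte cannot be told apart.

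**Figure D1:**
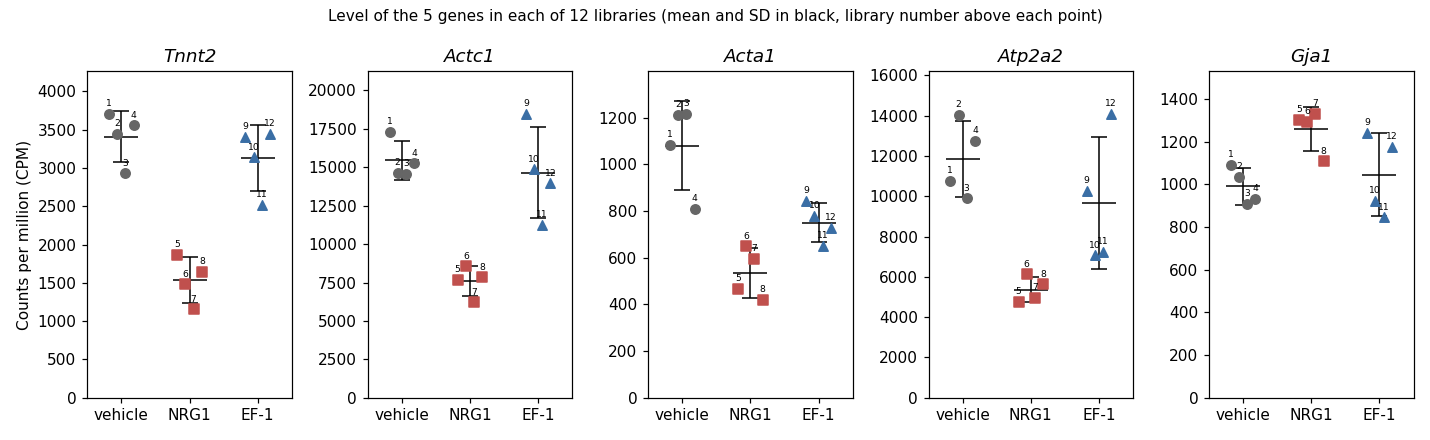
CPM of the 5 genes (y axes, each starting at 0) in the vehicle, NRG1 and EF-1 groups; points are single libraries with their number, and black bars are the mean and SD of 4 libraries. For Tnnt2, the NRG1 libraries sit between 1154 and 1869.7 CPM, below the vehicle libraries at 2931 to 3707 CPM, and for Atp2a2, EF-1 library 12 lies at 14091.5 CPM, above the other EF-1 libraries.

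Tnnt2, the thin-filament gene for cardiac troponin T, had 3707, 3442, 2931 and 3558 CPM in vehicle libraries 1 to 4, 1869.7, 1483, 1154 and 1641 CPM in NRG1 libraries 5 to 8, and 3405, 3139, 2517 and 3446 CPM in EF-1 libraries 9 to 12. All NRG1 libraries lay below all others, NRG1 library 7 was the lowest, and the EF-1 libraries overlapped the vehicle range except for library 11. The means were 3409 ± 337 CPM in vehicle, 1537 ± 301 CPM in NRG1 and 3126.5 ± 429 CPM in EF-1 (SD, n = 4 each), or 3020.0 ± 456 CPM without EF-1 library 12 (SD, n = 3). With NRG1, Tnnt2 fell by 1.18 on the log2 scale (SE 0.156, 95% interval -1.52 to -0.84, adjusted p = 8.61e-05, edgeR's quasi-likelihood test with Benjamini-Hochberg adjustment over the 10997 genes tested), a 2.27-fold lower level in the fit.

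Actc1, the gene for cardiac α-actin, reached 17321, 14639, 14568 and 15266 CPM in vehicle libraries 1 to 4, 7666, 8564.5, 6222 and 7847 CPM in NRG1 libraries 5 to 8, and 18483, 14871.5, 11275.5 and 13964 CPM in EF-1 libraries 9 to 12. The NRG1 libraries were separate from both other groups, and EF-1 spread on either side of vehicle, with library 9 above and libraries 11 and 12 below every vehicle library. Means were 15449 ± 1287 CPM in vehicle, 7575 ± 982 CPM in NRG1 and 14649 ± 2978 CPM in EF-1 (SD, n = 4 each), so the spread of EF-1 was the widest, also without EF-1 library 12 (14877 ± 3604 CPM, n = 3). NRG1 lowered Actc1 2.08-fold (log2 fold change -1.06, SE 0.153, edgeR adjusted p = 0.000190).

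Acta1, the gene for skeletal α-actin, had 1085, 1214, 1217 and 809 CPM in vehicle libraries 1 to 4, 467, 649.8, 595 and 421 CPM in NRG1 libraries 5 to 8, and 845, 780.3, 652 and 727 CPM in EF-1 libraries 9 to 12. The NRG1 libraries were again below all others, though EF-1 library 11 at 652 CPM came close to NRG1 library 6, and 3 of 4 EF-1 libraries were below the lowest vehicle library, which was library 4. On library sizes scaled by TMM (edgeR's trimmed mean of M-values), as in the fit, 2 of 4 EF-1 libraries were below it, libraries 11 and 12. Acta1 fell with NRG1 by 1.05 on the log2 scale (SE 0.167, edgeR adjusted p = 0.000372), from 1081 ± 192 to 533 ± 107 CPM (SD, n = 4 each), and had a mean of 751 ± 81.6 CPM (SD, n = 4) after EF-1, or 759 ± 98.0 CPM (SD, n = 3) without EF-1 library 12. Actc1 and Acta1 encode nearly the same protein, so their reads may be in part alike, which was not measured. The split that Salmon made between them is an estimate.

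The ratio of the actins is given here beside their fall with NRG1. For every 100 counts of Actc1 there were 6.26, 8.29, 8.35 and 5.30 counts of Acta1 in vehicle libraries 1 to 4, 6.10, 7.59, 9.55 and 5.36 in NRG1 libraries 5 to 8, and 4.57, 5.25, 5.78 and 5.21 in EF-1 libraries 9 to 12. The vehicle and NRG1 ranges overlapped, with NRG1 library 7 above every vehicle library, and the means were 7.05 ± 1.52 and 7.15 ± 1.85 (SD, n = 4 each). EF-1 stood at 5.20 ± 0.497 (SD, n = 4), or 5.20 ± 0.608 (SD, n = 3) without EF-1 library 12. EF-1 libraries 9, 10 and 12 were below every vehicle and NRG1 library, and EF-1 library 11 was within both ranges. These ratios are a description, with no test.

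Atp2a2, the gene for the SERCA2 calcium pump, had 10772, 14046, 9895 and 12736 CPM in vehicle libraries 1 to 4, 4756.5, 6128, 4947 and 5638 CPM in NRG1 libraries 5 to 8, and 10264, 7073, 7246 and 14091.5 CPM in EF-1 libraries 9 to 12. NRG1 libraries lay below all others. EF-1 libraries 10 and 11 lay below the vehicle range and EF-1 library 12 above it, but within it on the TMM scale. The EF-1 mean was 9668.5 ± 3293 CPM (SD, n = 4), and 8194 ± 1794.5 CPM (SD, n = 3) without EF-1 library 12. In each group the libraries took the same order by Atp2a2 CPM as by the length slope, except that vehicle libraries 1 and 3 changed places. Atp2a2 fell with NRG1 by 1.18 on the log2 scale (SE 0.207, edgeR adjusted p = 0.000795), from 11862 ± 1879 to 5367 ± 633 CPM (SD, n = 4 each), and by 1.01 (SE 0.107, edgeR adjusted p = 4.97e-06) with an effective-length covariate. This covariate is the per-library average of log2 effective over annotated length, a measure other than the length slope. NRG1 library 7, for example, had a slope of 0.0705 and an average of -0.155, the lowest average of its group. No fit adjusted for the slope itself.

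Gja1, the gene for connexin 43, was the exception among the 5. It had 1092, 1036, 908 and 933 CPM in vehicle libraries 1 to 4, 1303, 1294, 1331 and 1108 CPM in NRG1 libraries 5 to 8, and 1242, 922, 846 and 1176 CPM in EF-1 libraries 9 to 12. The NRG1 libraries were above the vehicle libraries in 4 of 4 cases, by a narrow margin between NRG1 library 8 and vehicle library 1, and the EF-1 libraries ran from below the vehicle range (library 11) into the NRG1 range (libraries 9 and 12), with library 11 inside the vehicle range on the TMM scale. The mean was 992 ± 86.6 CPM in vehicle, 1259 ± 102 CPM in NRG1 and 1047 ± 192 CPM in EF-1 (SD, n = 4 each), or 1003 ± 210.4 CPM without EF-1 library 12 (SD, n = 3). The fitted log2 fold change with NRG1 was 0.31 (SE 0.122, 95% interval 0.05 to 0.58), which did not pass (edgeR adjusted p = 0.0700). The side of the threshold depended on the fit: Gja1 passed with DESeq2 (0.32, adjusted p = 0.0217), with the effective-length covariate (0.34, adjusted p = 0.0220), in a fit of the NRG1 and vehicle groups alone (0.31, adjusted p = 0.0389) and without NRG1 library 8 (0.39, adjusted p = 0.0459), while over all fits of gene counts its adjusted p ranged from 0.0217 to 0.177. In that order, the fits that Gja1 passed called 2036, 2556, 2079 and 1581 genes higher with NRG1. The edgeR fit given first called 1753 genes higher.

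A gene was called at an adjusted p under 0.05. With NRG1, 4 of 5 genes were called lower, against 15.3% of all genes tested, and 0 of 5 were called higher, against 15.9%. All 4 also met the stricter rule of a log2 fold change at or below -0.58, which 9.17% of genes met on the lower side. In 4 of 5 genes all NRG1 libraries were below all vehicle libraries, as in 16.4% of genes tested, and in Gja1 all were above, as in 20.6%. The median log2 fold change was -1.06 over the 5 genes and -0.01 over all genes tested. By rank, 3.19% of the genes tested had a lower log2 fold change than Tnnt2, 3.22% than Atp2a2, 3.93% than Actc1 and 3.96% than Acta1, whereas 77.3% had a lower one than Gja1.

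With EF-1, none of the 5 genes was called against vehicle, where 0.0182% of genes tested were called lower and 0.00909% higher. The authors, with DESeq2 and a term for the sequencing run, report many more genes changed by EF-1 in these cells. That term could not be fitted here, so few calls are no sign that EF-1 changed few genes. Acta1 had the largest difference of the 5, with a log2 fold change of -0.51 (SE 0.165, 95% interval -0.87 to -0.15, edgeR adjusted p = 0.228), and Atp2a2 followed with -0.29 (SE 0.205, 95% interval -0.74 to 0.15, edgeR adjusted p = 0.354). For Tnnt2 the value was -0.11 (95% interval -0.45 to 0.22), for Actc1 -0.07 (-0.39 to 0.26) and for Gja1 0.09 (-0.18 to 0.35), with edgeR adjusted p = 0.632, 0.786 and 0.653. In none of the 5 genes were the EF-1 and vehicle groups separate, which 2.54% of genes tested were on the lower side and 1.88% on the higher side. At an unadjusted p under 0.05, edgeR passed Acta1 alone of the 5 genes, and 2256 of all 10997 genes tested. The pass of Acta1 is to be read beside that share. After adjustment, DESeq2 called 210 of the 10997 genes and limma-voom 0, with none of the 5 among them (for Acta1, DESeq2 adjusted p = 0.0924 and limma-voom adjusted p = 0.240).

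The call of Atp2a2 depended on EF-1 library 12. Without it, Atp2a2 was called lower than vehicle with a log2 fold change of -0.52 (SE 0.172, edgeR adjusted p = 0.0426, n = 3 against 4), but 13.1% of genes were then called lower and 15.7% higher, and the count of 1 in 5 is to be read beside those shares. With EF-1 library 12 left out and the effective-length covariate in the fit, the value for Atp2a2 was -0.03 (SE 0.187), and with the covariate on all 12 libraries it was -0.01 (SE 0.116, edgeR adjusted p = 0.993). The covariate was -0.163, -0.223 and -0.171 in EF-1 libraries 9 to 11, below every vehicle and NRG1 library. In EF-1 library 12 it was -0.0755, within the vehicle range. Without library 12, EF-1 and the covariate can therefore hardly be told apart, and the part of length in the Atp2a2 difference was not tested. Acta1 changed little across the same fits, at -0.48 (SE 0.179, edgeR adjusted p = 0.0578) without library 12, at -0.54 (SE 0.278) with the covariate as well and at -0.56 (SE 0.179) with the covariate on all 12 libraries. Tnnt2 and Actc1 without library 12 stood at -0.15 and -0.03, and Gja1 at 0.04.

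**Figure D2:**
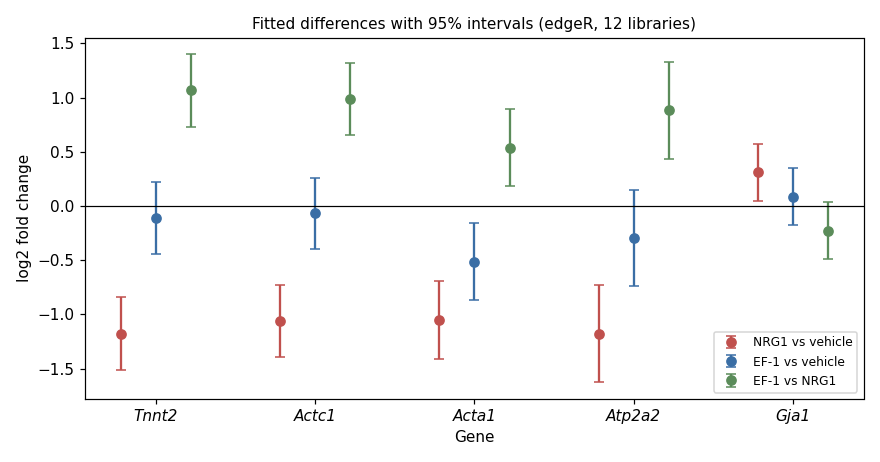
Fitted log2 fold changes (y axis) of the 5 genes for NRG1 against vehicle, EF-1 against vehicle and EF-1 against NRG1, with 95% intervals from edgeR on all 12 libraries. The NRG1 intervals of Tnnt2, Actc1, Acta1 and Atp2a2 lie wholly below 0, and the EF-1 intervals of Tnnt2, Actc1, Atp2a2 and Gja1 against vehicle include 0.

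Since both agents were compared with the same vehicle libraries, the direct test between them carries the difference. EF-1 was higher than NRG1 in 4 of 5 genes called, against 20.8% of genes tested, and lower in 0 of 5, against 21.0%. The log2 fold change was 1.07 for Tnnt2 (SE 0.155, edgeR adjusted p = 0.000179), 0.99 for Actc1 (SE 0.153, edgeR adjusted p = 0.000284), 0.88 for Atp2a2 (SE 0.206, edgeR adjusted p = 0.00443) and 0.54 for Acta1 (SE 0.165, edgeR adjusted p = 0.0197). Tnnt2, Actc1 and Atp2a2 passed a log2 fold change of 0.58 as well, as did 13.7% of genes on the higher side. In Tnnt2, Actc1, Acta1 and Atp2a2 every EF-1 library was above every NRG1 library, as in 13.9% of genes, and the reverse held for 0 of 5 genes, against 19.2%. Gja1 was not called (-0.23, SE 0.122, edgeR adjusted p = 0.149). Without EF-1 library 12 the same 4 genes were called higher, against 27.6% of genes, and 0 of 5 lower, against 27.0%, with Tnnt2 and Actc1 both at 1.03, Atp2a2 at 0.66 (SE 0.169, edgeR adjusted p = 0.00572) and Acta1 at 0.57 (SE 0.176, edgeR adjusted p = 0.0164). The call of Acta1 was the least firm: it was lost without NRG1 library 5 (0.47, adjusted p = 0.0561), NRG1 library 8 (0.43, adjusted p = 0.0699), EF-1 library 9 (0.49, adjusted p = 0.0532) or EF-1 library 10 (0.50, adjusted p = 0.0518), and without EF-1 library 12 when the effective-length covariate was added (0.53, adjusted p = 0.0925). In the last of these fits EF-1 and the covariate can hardly be told apart.

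To compare levels between genes, transcripts-per-million (TPM) values, which divide reads by transcript length, were taken from the transcript estimates of each library. No table given here pairs transcripts with genes, so the transcripts of each gene were found from the values: the gene count equals the summed TPM of its transcripts times a factor for the gene and a factor for the library. Actc1, whose best match set the library factor, corresponded to ENSRNOT00000011773 (1489 bases). With that factor, Acta1 corresponded to ENSRNOT00000024084 (1436 bases), Gja1 to ENSRNOT00000001054 (3127 bases), Atp2a2 to the sum of ENSRNOT00000001738 (4283 bases) and ENSRNOT00000024347 (5555 bases), and Tnnt2 to the sum of ENSRNOT00000050284 (870 bases), ENSRNOT00000047682 (1192 bases) and ENSRNOT00000084986 (900 bases). The relative residual over 12 libraries had an SD of 1.6e-05 or less for these 4 genes, against at least 0.00232 for the next best choice of transcripts. The same library factor matched 3024 of 4223 genes with over 500 counts in every library to 1 transcript each, with an SD under 0.001.

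By TPM, Actc1 stood first in all groups, with 14826 ± 1262 in vehicle, 7451 ± 1054 in NRG1 and 13546 ± 3770 in EF-1 (SD, n = 4 each). Tnnt2 came next with 3948 ± 430.2, 1814.5 ± 306 and 3478 ± 748 TPM, then Atp2a2 with 3002 ± 517, 1393 ± 205 and 2371 ± 969.9 TPM. The ranges of Tnnt2 and Atp2a2 overlapped in every group, and Tnnt2 was the higher of the pair within each of the 12 libraries. Acta1 followed with 971 ± 168, 493 ± 114 and 647 ± 117 TPM, and Gja1 was last with 339.8 ± 32.0, 442 ± 40.7 and 345.9 ± 93.5 TPM. Acta1 and Gja1 were separate in vehicle and EF-1 libraries but overlapped in NRG1 libraries, where Gja1 was above Acta1 in libraries 5 and 8. Without EF-1 library 12 the EF-1 means took the same order, with Actc1 at 13548, Tnnt2 at 3294, Atp2a2 at 1962, Acta1 at 642 and Gja1 at 326 TPM (n = 3).

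The share of each transcript in the TPM of its gene was taken for Tnnt2 and Atp2a2. As a background, the transcripts of 557 genes were found from the values in the same way, 2 or 3 for each gene and 1147 in all, with Tnnt2 and Atp2a2 among them. Of these 1147 shares, 6.63% were lower in every NRG1 library than in every vehicle library and 6.80% were higher. Without overlap between EF-1 and NRG1, 5.32% were lower and 5.32% higher in EF-1, and between EF-1 and vehicle 1.74% were lower and 1.83% higher in EF-1, none of the 5 transcripts of Tnnt2 and Atp2a2 among these last. For Tnnt2, ENSRNOT00000050284 made up 52.9%, 55.3%, 49.8% and 53.8% of Tnnt2 TPM in vehicle libraries 1 to 4, 39.97%, 43.2%, 38.2% and 42.98% in NRG1 libraries 5 to 8, and 48.7%, 48.6%, 46.9% and 50.4% in EF-1 libraries 9 to 12. Its NRG1 shares were below those of all other libraries. ENSRNOT00000084986, the rarest of the 3, made up 3.87%, 3.81%, 4.63% and 4.55% in vehicle libraries 1 to 4, 9.13%, 8.26%, 9.62% and 9.77% in NRG1 libraries 5 to 8, and 4.48%, 4.96%, 5.04% and 5.07% in EF-1 libraries 9 to 12. The NRG1 shares of this transcript were above those of all other libraries. ENSRNOT00000047682 held 42.8% ± 2.06 in vehicle, 49.7% ± 2.25 in NRG1 and 46.4% ± 1.45 in EF-1 (SD, n = 4 each), with every NRG1 library above every vehicle library and overlap between NRG1 and EF-1. Without EF-1 library 12 the EF-1 means of the 3 transcripts were 48.1% ± 1.01 for ENSRNOT00000050284, 4.83% ± 0.306 for ENSRNOT00000084986 and 47.1% ± 0.845 for ENSRNOT00000047682 (SD, n = 3 each).

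In a fit across the 14874 transcripts tested, made on Salmon's transcript counts with the same test, ENSRNOT00000050284 of Tnnt2 fell with NRG1 by 1.48 on the log2 scale (SE 0.174, edgeR adjusted p = 6.68e-05) and ENSRNOT00000047682 by 0.91 (SE 0.148, edgeR adjusted p = 0.000741), where 11.6% of the transcripts tested were called lower and 13.5% higher. ENSRNOT00000084986 of Tnnt2 had a log2 fold change of 0.02 (SE 0.140, edgeR adjusted p = 0.944). Transcripts of 1 gene can share exons, and these errors do not include the uncertainty of how Salmon split reads among them.

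Atp2a2 had 2 transcripts. The longer one, ENSRNOT00000024347, made up 16.2%, 16.1%, 20.3% and 17.5% of Atp2a2 TPM in vehicle libraries 1 to 4, 26.4%, 25.8%, 29.8% and 26.2% in NRG1 libraries 5 to 8, and 16.5%, 15.9%, 19.1% and 15.8% in EF-1 libraries 9 to 12. All NRG1 shares were above all others, to be read beside the shares of the background above, and vehicle and EF-1 shares overlapped, with an EF-1 mean of 16.8% ± 1.57 (SD, n = 4), or 17.2% ± 1.74 (SD, n = 3) without EF-1 library 12. In the transcript fit, ENSRNOT00000001738, the shorter and more abundant one, fell with NRG1 by 1.32 (SE 0.201, edgeR adjusted p = 0.000461), whereas ENSRNOT00000024347 of Atp2a2 had -0.53 (SE 0.183, edgeR adjusted p = 0.0506) and was not called. The longer Atp2a2 transcript passed in 7 of 19 other fits, among them those without vehicle library 1 (-0.61, adjusted p = 0.0434), EF-1 library 10 (-0.53, adjusted p = 0.0244) or EF-1 library 12 (-0.55, adjusted p = 0.0112) and the one with the effective-length covariate (-0.37, adjusted p = 0.00354), over a range of adjusted p from 0.00354 to 0.111. In that order, the fits named called 1448, 1774, 2187 and 2579 transcripts lower with NRG1. The transcript fit given first called 1731 lower. Transcript shares are descriptions chosen after their values were seen.

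**Figure D3:**
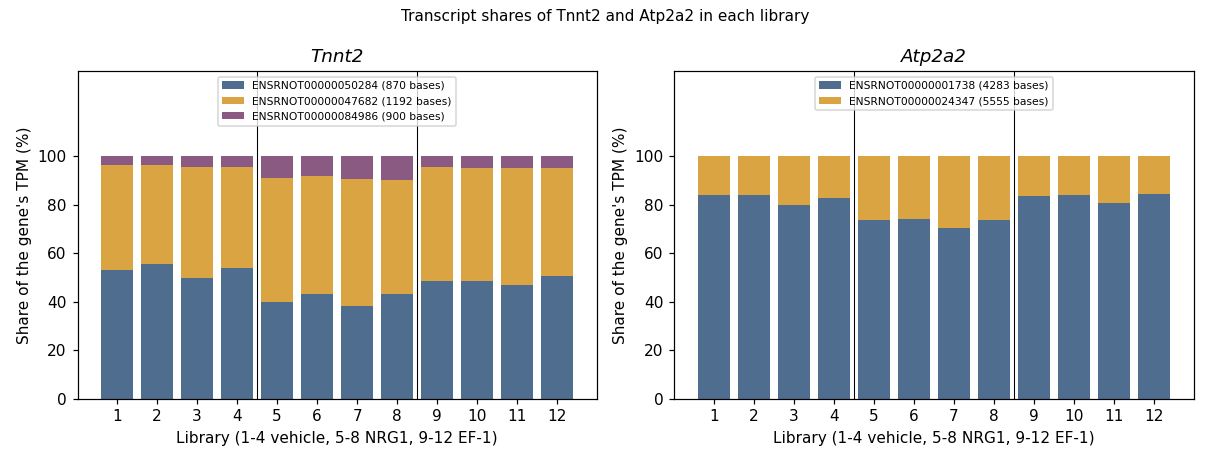
Share of the gene's TPM (y axis, in percent) held by each transcript of Tnnt2 and Atp2a2 in libraries 1 to 12 (x axis); stacked bars add up to 100% and lines part the groups. In NRG1 libraries the 900-base Tnnt2 transcript holds 8.26% to 9.77%, against 3.81% to 5.07% elsewhere, and the 5555-base Atp2a2 transcript holds 25.8% to 29.8%, against 15.8% to 20.3%.

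Likeness between genes was measured as Pearson's r over the 12 libraries of log2 CPM on TMM-scaled library sizes (prior count 2), which holds the differences between groups as well as those within them. Tnnt2 and Actc1 were the most alike pair of the 5 (r = 0.962), and after each library was centred on its group mean they had r = 0.654. Acta1 had r = 0.791 with Actc1 and 0.725 with Tnnt2 over all libraries, but 0.140 and -0.358 once centred. Gja1 had negative r with the other 4 over all libraries (-0.445 to -0.587) and positive r once centred (0.286 to 0.527). Of all genes tested, the closest to Actc1 was ENSRNOG00000046283 (r = 0.991 over 12 libraries), which fell with NRG1 by 1.35 (SE 0.150, edgeR adjusted p = 2.53e-05). This r holds the NRG1 difference itself, so the change of any gene picked by it is no separate result. The closest to Atp2a2 was ENSRNOG00000019254 (r = 0.984), which fell by 1.25 (SE 0.193, edgeR adjusted p = 0.000315). The closest to Gja1 was ENSRNOG00000015511 (r = 0.963), with a log2 fold change of 0.22 (SE 0.0839) that did not pass (edgeR adjusted p = 0.0682), and it is named although no rise was called, a choice made after its value was seen. The files pair none of these identifiers with gene names. After centring, the closest genes to Tnnt2, Actc1 and Atp2a2 had log2 fold changes with NRG1 of 0.06, -0.04 and -0.08 (edgeR adjusted p = 0.628, 0.841 and 0.804). Those closest to Acta1 and Gja1 had -0.54 and -0.02 (edgeR adjusted p = 0.000792 and 0.920). Genes with r above 0.95 numbered 91 for Actc1, 66 for Atp2a2, 37 for Tnnt2 and 1 each for Acta1 and Gja1, and after centring 177 for Atp2a2 but 2 for Actc1 and 0 for Tnnt2, Acta1 and Gja1.

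The promoters of genes that fell together with NRG1 are shown for letters known from muscle genes. Sequences are from RefSeq (build GRCr8, whereas the reads were quantified on Rnor_6.0), where all 5 genes had an entry and Tnnt2 had 2, of which the first listed was used. Windows of 250 bases before to 50 after the annotated start were searched on both strands for 6 motifs. The CArG box, bound by serum response factor, was present in 1.64% of all 33469 such windows. The letters CATTCC, the core of the M-CAT element, were present in 14.2%. The letters TATAAA, which a CArG box may itself hold, were also in 14.2%. The AP-1 site, spelled TGACTCA or with a G at its centre, was in 4.63%. The E-box, spelled CANNTG, was in 72.1%, and the GC box, spelled GGGCGG, was in 33.1%. The CArG box lay 94 bases before the start of Acta1 and at base 3 after the start of Actc1, and CATTCC lay 83 bases before the start of Tnnt2 and 67 bases before that of Acta1. TATAAA lay 29 bases before the start of Acta1. CANNTG occurred in the Tnnt2, Acta1 and Atp2a2 windows and GGGCGG in those of Acta1 and Atp2a2, and the AP-1 letters were in none of these 4 windows. The Atp2a2 window held neither CArG box nor CATTCC and is not printed. The CArG box and CATTCC were picked for capitals after the matches of all 6 motifs were seen. The 130 bases before and 20 after the start are given on the gene's strand for Acta1 (chr19:68784175-68784324, minus strand), Actc1 (chr3:121271808-121271957, minus strand) and Tnnt2 (chr13:49818993-49819142, plus strand). A match describes letters in this window and nothing about binding.
Acta1: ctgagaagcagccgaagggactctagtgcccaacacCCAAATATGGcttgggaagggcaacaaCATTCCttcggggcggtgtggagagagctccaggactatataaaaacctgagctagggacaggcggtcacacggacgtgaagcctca
Actc1: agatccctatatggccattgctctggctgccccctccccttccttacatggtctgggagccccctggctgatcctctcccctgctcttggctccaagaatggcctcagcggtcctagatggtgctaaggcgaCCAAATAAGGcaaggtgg
Tnnt2: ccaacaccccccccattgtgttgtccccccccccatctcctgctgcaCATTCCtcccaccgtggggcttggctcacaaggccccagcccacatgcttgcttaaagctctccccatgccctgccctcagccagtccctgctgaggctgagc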

How the data were processed

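The authors deposited estimated counts per gene, made from Salmon quantification against the Rnor_6.0 transcriptome and summed with length scaling by tximport, as whole numbers. Per library, the deposited Salmon output gives estimated counts and TPM per transcript, with annotated and effective lengths. The authors tested with DESeq2 and a term for the sequencing run, which the labels do not give per library, so no such term was fitted here.

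Counts of all 12 libraries were fitted together by group with edgeR 4.0.16 (R 4.3.3), rounded to whole numbers, with TMM factors, filterByExpr at a minimum count of 10 (10997 genes, all 5 members among them), robust quasi-likelihood tests and Benjamini-Hochberg adjustment over all genes tested. The call rules were an adjusted p under 0.05 and, more strictly, 0.58 or more in log2 fold change of either sign as well. The authors call the libraries of EF-1 biological replicates, but neither they nor the labels say whether libraries came from separate cultures, so p-values measure the spread between these libraries, which may be technical. No library was a copy of another of its group within sampling noise (chi-squared per degree of freedom 16.7 to 202), which says nothing of separate cultures. Library measures were compared with two-sided exact permutation tests, adjusted over 9 tests.

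The members and lists were chosen with earlier results of these data known. The 5 members were always named, and of the genes most like them at most 2 that rose and 2 that fell with NRG1, by the best match of each member. The alternatives were DESeq2 1.42.0, limma-voom (limma 3.58.1), RLE factors, library size alone, no expression filter, the 2 compared groups alone, an effective-length covariate and leaving out each library. Chosen after seeing the data were the matching of transcripts to genes by value, the transcript fit (on Salmon counts rounded to whole numbers), the actin ratio in TPM, the effective-length covariate without EF-1 library 12, leaving out libraries for the library measures and transcript shares, EF-1 means without library 12, and the background of transcript shares (genes over 500 counts in every library, 2 or 3 transcripts, relative residual SD under 0.001, coefficients within 1% of each other). Permutation tests of the transcript shares were also run but are not reported, since their adjustment covered these transcripts alone, and the shares stand as descriptions. Gene lists of pathways and cell type markers were not run, because no given table pairs the Ensembl identifiers with symbols, and no protein sequences were given. Python 3.11.15 with numpy 2.4.6, pandas 2.3.3, scipy 1.17.1 and matplotlib 3.10.9 was used for the rest.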

Additional observations from a re-analysis of the deposited data

Results flagged for a closer look

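In 42 groups of 4 libraries (CPM of the 5 genes, transcript shares, the actin ratio and the library measures), the gap between the lowest or highest library and its nearest neighbour was divided by the range of the group and compared with Dixon's 95% critical value. It was exceeded 3 times, where chance gives about 5% of groups. Gja1 in NRG1 library 8, at 1108 CPM, lay below the other NRG1 libraries at 1294 to 1331 CPM, with a ratio of 0.833. In NRG1 library 7, ENSRNOT00000001738 had the lowest share of Atp2a2 TPM (70.2%) and ENSRNOT00000024347 the highest (29.8%), each with a ratio of 0.855. These shares add up to 100%, so they are 1 observation. Vehicle library 3 (20.3%) and EF-1 library 11 (19.1%) likewise had the highest share of ENSRNOT00000024347 in their groups. Libraries 3, 7 and 11 each had the lowest CPM of Tnnt2 and Actc1 in their groups, and the most Acta1 counts per 100 Actc1 counts. Vehicle library 4 and NRG1 library 8 had the fewest such counts and the lowest Acta1 CPM of their groups. In EF-1 the fewest were in library 9 and the lowest Acta1 CPM in library 11. The causes were not tested.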

How the results depend on the processing

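No paired analysis was run because the labels give the groups no number in common. By order within the groups, some values recurred, as log2 CPM centred on group means. Tnnt2 had -0.23, -0.41 and -0.23 in libraries 3, 7 and 11, and Acta1 had -0.40, -0.33 and -0.08 in libraries 4, 8 and 12. Gja1 had -0.14, 0.06 and -0.22 in libraries 3, 7 and 11. Whether libraries of the same order belong together was not tested, and the p-values here treat all libraries as separate. Reading the actins through a given pairing of transcripts with genes was not run, since no file pairs them, and a match by value took its place after the data were seen. The fall of Tnnt2, Actc1, Acta1 and Atp2a2 with NRG1 and the higher Tnnt2, Actc1 and Atp2a2 with EF-1 than with NRG1 held their direction and side of the threshold in all alternatives run.

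The log2 fold change of Gja1 with NRG1 passed under DESeq2 (0.32), with the effective-length covariate (0.34) and with the 2 groups alone (0.31), and ranged from 0.27 to 0.39 when each library was left out, passing without NRG1 library 8. The number of genes called higher in each of these passing fits is given with Gja1 above. Acta1 in EF-1 against NRG1 kept its call with the covariate alone and without EF-1 library 12 alone, but lost it with both changes together (0.53). It ranged from 0.43 to 0.64 over left-out libraries, and 4 of these 12 fits lost the call. For EF-1 against vehicle, Actc1 ranged from -0.16 to 0.0208, changing sign without EF-1 library 11, Atp2a2 from -0.52 to -0.18, passing without EF-1 library 12, and Gja1 on transcript counts was -0.002403. The number of genes called in EF-1 against vehicle was 3 with edgeR, 210 with DESeq2, 5 with library size alone, 0 with limma-voom (2064 at an unadjusted p under 0.05), 1 with the 2 groups alone, 0 with the covariate and EF-1 library 12 left out in 1 fit (449 unadjusted), and 0 to 3207 over left-out libraries, 3207 of them without EF-1 library 12. The difference in length slope between NRG1 and vehicle ranged from -0.0175 to 0.0773.

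Among transcripts, ENSRNOT00000084986 of Tnnt2 with NRG1 was -0.000639 with limma-voom and -0.00494 with the 2 groups alone, and ranged from -0.12 to 0.10 over left-out libraries. For EF-1 against vehicle, ENSRNOT00000047682 of Tnnt2 was -0.0192 with the covariate and EF-1 library 12 left out in 1 fit, and ENSRNOT00000001738 of Atp2a2 was 0.0129 with the covariate. ENSRNOT00000024347 of Atp2a2 passed without EF-1 library 12 (-0.55, edgeR adjusted p = 0.0493), a fit in which 1243 of 15116 transcripts were called, against 0 of 14874 with all libraries. In EF-1 against NRG1 the same transcript passed with the covariate (0.28, edgeR adjusted p = 0.0147), a fit in which 5778 of 14874 transcripts were called, against 5037 without the covariate. The causes were not tested. With 4 libraries a group, small differences may miss the threshold. Any reads shared by Acta1 and Actc1, or by transcripts of 1 gene, carry an uncertainty that no test here includes.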
